A study of Mus musculus with 233 samples.

Results

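The comparison described here set a zinc finger repressor against its own protein without a DNA-binding domain in the striatum of mice that carry no disease allele. Wild-type (WT) littermates of zQ175 knock-in mice, which have an expanded CAG repeat in the Huntingtin gene Htt, were injected at 2 months of age and sampled at 6 months, after 4 months of expression (the cohort named 2M_6M). The adeno-associated virus nZFP carried the HA-tagged repressor ZFP30645, directed at expanded CAG repeats, and the virus DBD carried that protein without the domain that binds DNA, both under the human synapsin promoter, which is active in neurons. The virus Estop carried a stuffer sequence that codes for no protein and served as a further reference. Of the 233 libraries of the series, 15 entered the comparison: all 8 labelled WT nZFP and 7 of the 8 labelled WT DBD. The library labelled WT DBD R6 was left out, because its vector sequences went against its label. A further 7 WT Estop libraries placed each change on the side of nZFP or of DBD. Genes were the unit of the tests, 15657 after a filter on low counts, and vector entries were not among them. Striatal hemispheres were sequenced separately and each mouse received a different virus on either side, so the 22 WT libraries came from 11 mice: 4 mice held nZFP and DBD, 4 held nZFP and Estop, and 3 held DBD and Estop. Female and male libraries numbered 5 and 3 under nZFP, 3 and 4 under DBD, and 4 and 3 under Estop.

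Zinc finger repressors join an array of fingers that contact DNA to a domain that recruits repressive chromatin. The WT Htt gene of the mouse has a short, interrupted CAG tract, so WT mice lack the expanded target. Medium spiny neurons, the projection neurons that make up most striatal neurons, express the synapsin promoter. In bulk tissue, fewer cells of a type and less RNA per cell cannot be told apart.

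WT libraries held 30325334 to 41763523 gene counts. CPM are counts scaled to the library's total gene counts for vector entries, and to that total adjusted by TMM normalization for genes. The repressor entry reached 427 to 1087 CPM in the 8 nZFP libraries and 7.24 to 17.5 CPM in DBD and Estop libraries. WPRE, a viral RNA element present in both protein-coding viruses, was at 849 to 1731 CPM under nZFP, 1788 to 4186 CPM under DBD and 35.9 to 73.6 CPM under Estop, so every DBD library held more of it than any nZFP library. The amount of vector transcript and the kind of protein cannot be told apart in this contrast. In the library left out, WPRE was at 59.2 CPM. An entry named for the DBD was at 0 CPM in every library of the cohort, DBD libraries included. The DBD labels could therefore be checked only against the other vector entries. The 9 medium spiny neuron markers were all measured, and their summed level overlapped between groups, at 9584 to 12140 CPM under nZFP, 9761 to 12094 CPM under DBD and 10371 to 12297 CPM under Estop. The 4 general neuron markers summed to 2668 to 2973 CPM under nZFP (median 2896), 2661 to 2812 CPM under DBD (median 2695) and 2811 to 3047 CPM under Estop (median 2994), so DBD lay almost wholly below Estop. The 16 synaptic vesicle release genes had summed medians of 8280 CPM under nZFP, 7908 CPM under DBD and 8648 CPM under Estop. The part of these levels in the differences from Estop given here was not tested. Summed microglial markers were at 228 to 312 CPM under nZFP, 237 to 284 CPM under DBD and 226 to 279.8 CPM under Estop. Cortical neuron markers summed to 1.42 to 3.50 CPM over 3 of 4 markers (Neurod6 was under the filter), and of 3 choroid plexus markers Ttr and Folr1 were under it. DBD R7 and Estop R1 stood apart in a length index, the median deviation of long genes minus that of short genes on the log2 CPM scale (-0.50 and -0.35, against -0.14 to 0.13 in nZFP libraries).

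Few genes differed between repressor and DBD in WT striatum. At an adjusted p under 0.05, 33 genes were lower under nZFP (0.211% of genes tested) and 8 were higher (0.0511%), and 624 genes had an unadjusted p under 0.05. The falls were large and the rises small: the 33 falls had a median log2 fold change of -0.92 and ran from -0.23 to -3.24, whereas the 8 rises had a median of 0.39 and none exceeded 0.66. Against Estop, 57 genes were lower under nZFP (0.364%) and 37 higher (0.236%), while DBD had 7 genes lower (0.0447%) and 17 higher (0.109%) than Estop. The Estop counts moved with the processing. Without zQ175 DBD R3, 133 genes were lower and 76 higher for nZFP minus Estop, and 42 lower and 35 higher for DBD minus Estop, so the balance of the latter turned. With the length index in the fit these were 158 and 125, and 37 and 42, and DESeq2 called 22 lower and 29 higher in DBD than Estop. These 3 comparisons share libraries by pairs. A block for the mouse left 27 falls, of which 26 were among the 33, and 5 rises, of which 3 were among the 8. The counts of falls and rises were 57 and 26 without zQ175 DBD R3, a library of the other genotype that shares the fit's estimate of spread, and 58 and 36 once the length index entered the fit. All 33 falls passed under both settings.

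Each fall was then set against Estop. For 28 of the 33, nZFP was also below Estop and DBD was not apart from Estop: median log2 fold changes of these genes were -0.89 for nZFP minus DBD, -0.89 for nZFP minus Estop and -0.01 for DBD minus Estop, the last between -0.26 and 0.14. The remaining 5 were of other kinds. Mkrn3 had DBD above Estop with nZFP not apart from Estop, Nup62cl, Klf14 and Fancd2 were above Estop under both proteins and more so under DBD, and Mfsd13a passed neither Estop comparison. Of the 8 rises, Habp4, Fstl5, Necab2 and 2900079G21Rik were also above Estop under nZFP, Ddn had DBD below Estop, and Sowaha, Kcnj3 and Zcwpw1 passed neither.

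**Figure D1:**
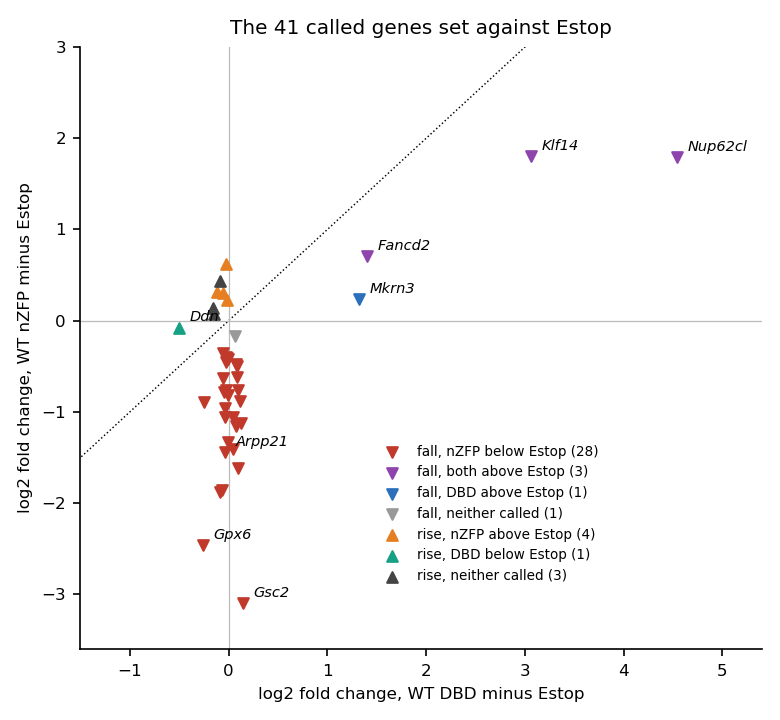
Log2 fold change against Estop of DBD (x axis) and of nZFP (y axis) in WT striatum for the 41 genes called in nZFP minus DBD, 1 point per gene, with colour and marker for the class and a dotted line of equal change. The 28 falls on the nZFP side lie near 0 on the x axis, and Nup62cl, Klf14, Fancd2 and Mkrn3 lie to the right.

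The gene with the lowest fold change among the falls of at least 1 CPM on the nZFP side was Gpx6 (ENSMUSG00000004341, chromosome 13: 21312125 to 21319624, build GRCm38 as for all positions here), which encodes a glutathione peroxidase. Gpx6 was at 0.991 to 5.95 CPM under nZFP (median 1.70), 6.87 to 12.4 CPM under DBD (median 9.12) and 8.94 to 13.7 CPM under Estop (median 11.8). No nZFP library reached any DBD or Estop library, and the difference from DBD was -2.20 (SE 0.22, adjusted p = 2.8e-09) on the log2 scale. Nap1l3 (ENSMUSG00000055733, chromosome X: 122394565 to 122397401), a member of the nucleosome assembly protein family, was at 5.76 to 25.6 CPM under nZFP (median 10.4), 38.8 to 48.7 CPM under DBD (median 41.7) and 41.5 to 62.5 CPM under Estop (median 43.0), again without overlap. Its log2 fold change was -1.79 (SE 0.19, adjusted p = 7.9e-09), and the nZFP median was 24.9% of that under DBD. Tceal6 (ENSMUSG00000031409, chromosome X: 135208687 to 135210687), of the transcription elongation factor A-like family, was at 17.6 to 59.2 CPM under nZFP (median 27.0), 91.4 to 128 CPM under DBD (median 102) and 101 to 129.6 CPM under Estop (median 105), without overlap, with -1.79 (SE 0.18, adjusted p = 2.1e-09). Both genes lie on the X chromosome and belong to a list of 16 Tceal, Bex and Nap1l genes, of which they were the 2 that passed. Of all genes tested, 0.211% were called lower, and the list was chosen with earlier results of these data known. Tceal5 was the next of that list, at -0.30 (SE 0.10, adjusted p = 0.57), and the median of the 16 was -0.09 against 0 for all genes.

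Arpp21 (ENSMUSG00000032503, chromosome 9: 112065091 to 112235938), a cAMP-regulated phosphoprotein enriched in medium spiny neurons, was the most abundant fall. It was at 519 to 1242 CPM under nZFP (median 667), 1714 to 2029 CPM under DBD (median 1856) and 1753 to 2143 CPM under Estop (median 1883). The 8 nZFP libraries were all below the lowest control library, with a log2 fold change of -1.40 (SE 0.13, adjusted p = 1.9e-10) against DBD and -1.44 (SE 0.13, adjusted p = 6.8e-11) against Estop. It was the 1 call among 29 measured genes of medium spiny neuron identity, whose median was 0.03, beside 0.211% of all genes called lower. Impdh1 (ENSMUSG00000003500, chromosome 6: 29200434 to 29216364), an enzyme of guanine nucleotide synthesis, was at 20.7 to 41.6 CPM under nZFP (median 24.3), 62.9 to 70.8 CPM under DBD (median 64.7) and 63.0 to 71.2 CPM under Estop (median 67.4). Stk32c (ENSMUSG00000015981, chromosome 7: 139103638 to 139213307), a serine/threonine kinase, was at 95.6 to 164 CPM under nZFP (median 105), 244 to 341 CPM under DBD (median 275) and 232 to 274 CPM under Estop (median 249). Both were without overlap, with -1.31 (SE 0.12, adjusted p = 1.1e-10) and -1.25 (SE 0.10, adjusted p = 4.7e-11).

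The other named falls were smaller. Phex (ENSMUSG00000057457, chromosome X: 157162075 to 157415312), a membrane peptidase known for phosphate balance, was at 1.48 to 4.67 CPM under nZFP (median 3.25), 5.30 to 9.79 CPM under DBD (median 6.53) and 4.29 to 9.14 CPM under Estop (median 6.55), overlapping Estop but not DBD (log2 difference -1.23, SE 0.20, adjusted p = 1.4e-04). Cd59a (ENSMUSG00000032679, chromosome 2: 104095801 to 104115354), an inhibitor of the complement membrane attack complex, was at 5.45 to 10.4 CPM under nZFP (median 5.76), 9.57 to 17.4 CPM under DBD (median 14.9) and 10.5 to 16.7 CPM under Estop (median 12.8), with 1 nZFP library above the lowest DBD library (log2 difference -1.10, SE 0.15, adjusted p = 5.9e-06). Kcnn3 (ENSMUSG00000000794, chromosome 3: 89520164 to 89675132), a calcium-activated potassium channel, was at 15.2 to 22.2 CPM under nZFP (median 19.9), 26.9 to 48.1 CPM under DBD (median 38.8) and 21.3 to 47.4 CPM under Estop (median 42.8) (log2 difference -1.02, SE 0.17, adjusted p = 5.7e-04). Its Estop range reached into that of nZFP through Estop R1, a library that stood apart in the length index, and the other 6 Estop libraries were at 36.7 CPM or more. Mzt2 (ENSMUSG00000022671, chromosome 16: 15848441 to 15863369), a component of gamma-tubulin complexes, was at 7.13 to 11.9 CPM under nZFP (median 8.67), 15.6 to 22.1 CPM under DBD (median 17.7) and 14.9 to 19.9 CPM under Estop (median 15.7), without overlap (log2 difference -0.99, SE 0.14, adjusted p = 1.4e-05).

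**Figure D2:**
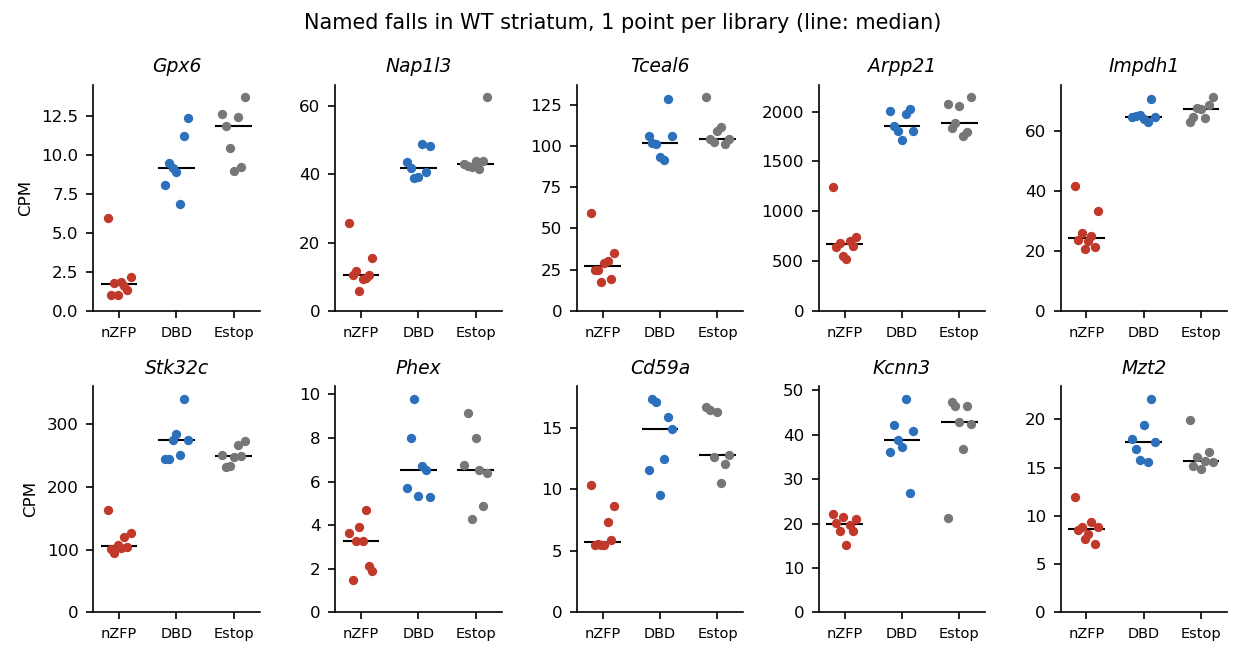
Level in CPM (y axes from 0) of the 10 named falls on the nZFP side in the 8 nZFP, 7 DBD and 7 Estop libraries of WT striatum, 1 point per library with the median as a line. The nZFP points lie below the control points in most panels, and 1 nZFP library sits above the other nZFP libraries for Gpx6, Nap1l3, Tceal6 and Arpp21.

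The remaining 18 falls on the nZFP side had log2 fold changes of -0.30 to -3.24. They included membrane and adhesion proteins (Opcml at -0.74 and Cadm3 at -0.37), the plasma membrane calcium pump Atp2b3 (-0.92), the receptor kinase Musk (-0.73) and the ErbB ligand Nrg2 (-0.86). Others were the transcription cofactor Dach1 (-0.80), the angiotensin-related receptor Mas1 (-0.71), the acyltransferase Gpat3 (-0.30) and the Ras association protein Rassf3 (-0.42). The homeobox gene Gsc2, with the lowest fitted value, which rests on few counts, was scarce, at 0 to 0.101 CPM under nZFP and 0.216 to 0.669 CPM under DBD. Genes of these 18 were named after their values were seen. Gm28042, at -1.71, overlaps another gene in the annotation, which makes its value uncertain. In all, 19 of the 28 falls had every nZFP library below every DBD library, as did 0.172% of all genes tested, and 16 had every nZFP library below every Estop library (0.179% of all genes). In the 4 mice with nZFP and DBD, 26 of the 28 were lower on the nZFP side in every mouse, and Ciz1 and Krt9 in 3 of 4. In the 4 mice with nZFP and Estop, all 28 were lower on the nZFP side in every mouse. The same libraries chose these genes, so the order within mice is a description and no separate support. The share of all genes with such an order is not given here. For Arpp21 the differences within mice were -1.63 to -0.54 on the log2 scale, and for Nap1l3 -1.96 to -0.60.

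Since the repressor is directed at CAG repeats, the annotated transcripts of all genes tested were searched for uninterrupted runs of CAG, or of CTG, which reads CAG on the other strand. A run of 5 or more units was found in 8 of the 28 falls on the nZFP side (28.6%), in 0 of the 5 other falls, in 1 of the 8 rises and in 512 of the 15554 tested genes with an annotated transcript (3.29%). Runs of 7 or more units were found in 4 of the 28 (14.3%) and in 1.09% of the tested genes. The longest was in Gab3, an adaptor protein gene, with 19 units in its 5′ untranslated region (chrX:75084832-75084888), and Gab3 was at 0.113 to 0.706 CPM under nZFP (median 0.331), 0.618 to 1.35 CPM under DBD (median 1.01) and 0.563 to 1.17 CPM under Estop (median 0.975). The runs in Nap1l3, Kcnn3 and Dach1 and in Tceal6, Gm26593 and Gsc2 are shown as their transcripts read, 5′ to 3′, because the falls hold these runs in their own exons, with the run in capitals. WT Htt is shown beside them for its shorter tract.
Nap1l3: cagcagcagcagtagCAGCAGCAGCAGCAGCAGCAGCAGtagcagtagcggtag
Kcnn3: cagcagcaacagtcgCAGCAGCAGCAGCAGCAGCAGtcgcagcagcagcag
Dach1: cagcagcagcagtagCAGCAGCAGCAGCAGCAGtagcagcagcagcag
Tceal6: ctagtcCTGCTGCTGCTGCTGCTGcggata
Gm26593: ctgttgCTGCTGCTGCTGCTGCTGtggcag
Gsc2: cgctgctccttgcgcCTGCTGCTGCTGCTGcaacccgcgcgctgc
Htt: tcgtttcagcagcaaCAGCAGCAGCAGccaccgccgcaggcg

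Nap1l3 held 8 units in its coding sequence (chrX:122396811-122396834, minus strand), Kcnn3 held 7 (chr3:89520667-89520687, plus strand) and Dach1 held 6 (chr14:98168891-98168908, minus strand), and Nrg2 held 7 in its coding sequence. Tceal6 held 6 as CTG in its 5′ untranslated region (chrX:135210632-135210649, minus strand), Gm26593 held 6 as CTG in an exon that codes for no protein (chrX:21361629-21361646, minus strand) and Gsc2 held 5 as CTG in its coding sequence (chr16:17914804-17914818, minus strand). The Htt run had 4 units (chr5:34761967-34761978, plus strand). The median log2 fold change of the 112 tested genes with 8 or more units was -0.0024, and 2 of them were called lower. Also called lower were 2 of the 57 genes with 7 units, 3 of the 111 with 6 and 1 of the 232 with 5. Of all genes tested, 0.211% were called lower. Most tested genes with a run were thus not called. Nor did all falls have one, since 20 of the 28 had no run of 5 units in an annotated transcript, among them Gpx6, Arpp21, Stk32c and Impdh1, the last with 4 units. In promoter windows of 250 bases before to 50 after the gene start, a run of 5 or more units was in 0 of 20 falls with a window and in 0.136% of 11803 tested genes. The 1 called gene with such a window was Habp4, a gene that rose. The search of transcripts was added after the fold changes were known, and introns and sequence beyond these windows were not searched.

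The 28 falls were then followed in the 4 other WT cohorts of the series, which are other mice: injected at 2 months and sampled at 8 months (2M_8M), or injected at 6 months and sampled at 8, 10 or 12 months (6M_8M, 6M_10M and 6M_12M). All 28 had a log2 fold change of nZFP minus DBD below 0 in each of the 4 cohorts, where 48.9% to 51.8% of all genes tested were below 0. They passed the test as lower in 23, 17, 25 and 21 of 28 in that order, against 2.04%, 0.186%, 0.297% and 0.206% of all genes. Their medians were -0.94, -0.72, -0.91 and -0.95. Arpp21 was at -0.93, -0.86, -1.43 and -1.43, Nap1l3 at -1.26, -1.24, -1.88 and -1.86 and Gpx6 at -1.52, -1.32, -2.06 and -2.12. The 6M_8M values leave out 3 libraries whose vector sequences contradicted their labels; with them, 26 of the 28 were below 0 and 0 passed (0.0625% of genes were called lower). The 6M_10M values include 2 libraries that stood apart, and all 28 passed without them (0.509%). In 2M_8M the length index ran from -0.54 to 0.05 in WT nZFP libraries and from -0.45 to 0.70 in WT DBD libraries. Its part in the 2M_8M values was not tested.

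**Figure D3:**
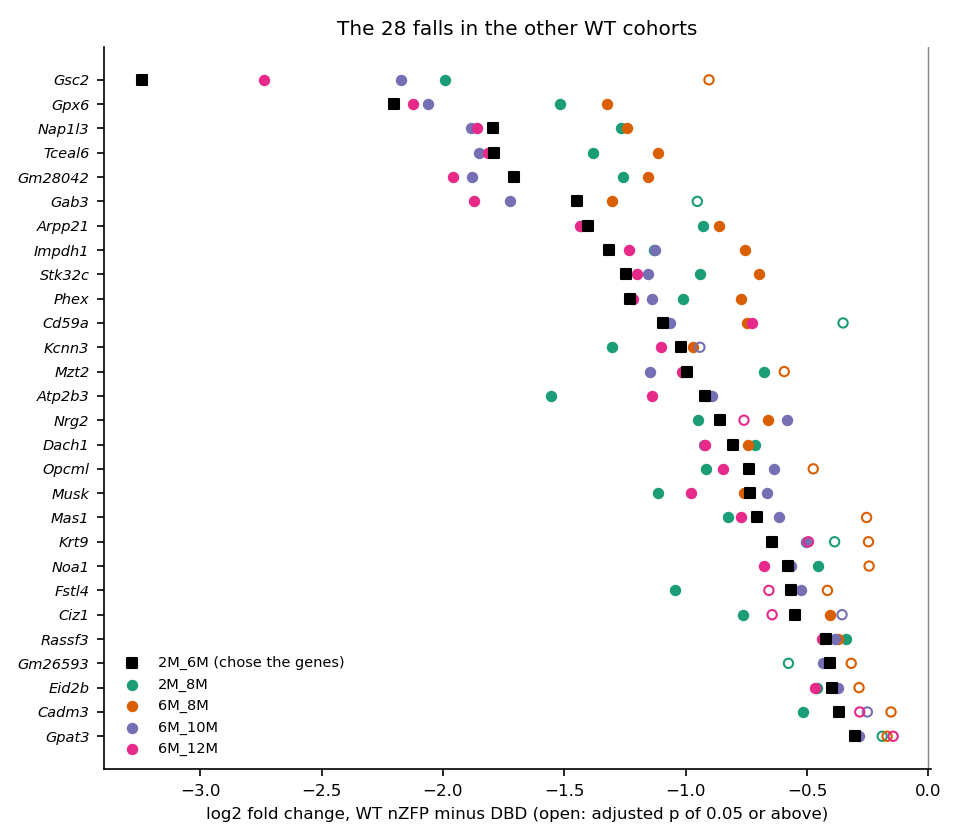
Log2 fold change of nZFP minus DBD in WT striatum (x axis) for the 28 falls on the nZFP side (y axis), with black squares for 2M_6M, which chose the genes, and coloured circles for the 4 other cohorts, open where the adjusted p was 0.05 or above. All circles lie left of 0.

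Of the genes lower under nZFP than under DBD, 4 had DBD above Estop, and for these the contrast with DBD alone would read as a fall. Nup62cl (ENSMUSG00000072944, chromosome X: 140006805 to 140062712), a nucleoporin-like gene, was at 0.0889 to 0.68 CPM under nZFP (median 0.44), 1.32 to 4.69 CPM under DBD (median 2.93) and 0.0274 to 0.319 CPM under Estop (median 0.0655). DBD libraries were all above the nZFP libraries, and nZFP overlapped Estop, where the gene had few counts. The log2 fold changes were -2.74 (SE 0.30, adjusted p = 2.9e-08) for nZFP minus DBD, 4.54 (SE 0.37, adjusted p = 1.0e-11) for DBD minus Estop and 1.80 (SE 0.39, adjusted p = 0.0092) for nZFP minus Estop. Klf14, a Krüppel-like transcription factor, was at 0.237 to 0.736 CPM under nZFP (median 0.455), 0.615 to 1.64 CPM under DBD (median 1.03) and 0.0823 to 0.197 CPM under Estop (median 0.131). Here nZFP lay between DBD and Estop, without overlap with Estop, at -1.26 against DBD and 1.80 against Estop. Fancd2, of the Fanconi anaemia DNA repair pathway, was at 1.46 to 3.71 CPM under nZFP (median 2.70), 2.58 to 5.84 CPM under DBD (median 4.26) and 1.15 to 1.82 CPM under Estop (median 1.74), at -0.69 (SE 0.16, adjusted p = 0.031) against DBD. Mkrn3 (ENSMUSG00000070527, chromosome 7: 62417593 to 62420139), an imprinted makorin RING finger gene, was at 1.31 to 2.32 CPM under nZFP (median 1.78), 2.58 to 4.96 CPM under DBD (median 3.96) and 0.822 to 1.92 CPM under Estop (median 1.70). Its nZFP and Estop libraries overlapped (log2 difference 0.23, SE 0.20, adjusted p = 0.99), and DBD stood above both, at 1.32 (SE 0.21, adjusted p = 1.5e-04) against Estop. In the other WT cohorts, nZFP minus DBD for Mkrn3 was -1.02, -1.06, -0.98 and -0.83, and for Nup62cl -1.90, -2.01, -3.05 and -2.60, passing in all 4.

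The other 13 genes that DBD raised over Estop were not called in nZFP minus DBD. Those given here were named after their values were seen. Tcfl5 and Sohlh1, are basic helix-loop-helix factors of germ cells. Tcfl5 was at 3.78 to 8.12 CPM under nZFP (median 5.31), 3.53 to 6.61 CPM under DBD (median 5.16) and 0.467 to 0.878 CPM under Estop (median 0.715), and Sohlh1 at 0.933 to 1.38 CPM under nZFP (median 1.24), 0.769 to 1.43 CPM under DBD (median 1.29) and 0.219 to 0.548 CPM under Estop (median 0.295). For both genes the libraries of either protein were above all Estop libraries, and nZFP minus DBD was 0.15 (SE 0.16, adjusted p = 1.0) and 0.10 (SE 0.22, adjusted p = 1.0). Theg, a testis gene, had DBD minus Estop at 2.52 and nZFP minus Estop at 1.86, Clec12a, a lectin-like receptor of myeloid cells, 1.09 and 0.83, and Pcdhb8, a clustered protocadherin whose reads can be shared with its neighbours, 1.33 and 1.24. Over the 17 genes that DBD raised, the median was 1.32 for DBD minus Estop and 0.71 for nZFP minus Estop. The 7 genes that DBD lowered had medians of -0.36 and -0.24. A block for the mouse left 12 genes higher and 2 lower in DBD than Estop. Without DBD R7 the genes lower in DBD numbered 14, and without DBD R4 or Estop R7 they numbered 4.

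Rises under nZFP were small. Necab2 (ENSMUSG00000031837, chromosome 8: 119446719 to 119472640), a neuronal calcium-binding protein and the rise with the smallest adjusted p, was at 281 to 329.9 CPM under nZFP (median 312), 212 to 284 CPM under DBD (median 231) and 230.2 to 295 CPM under Estop (median 246). The highest DBD library, R7, was also the one that stood apart in the length index, and it alone reached into the nZFP range. The log2 fold change of Necab2 was 0.44 (SE 0.06, adjusted p = 9.9e-06) against DBD and 0.32 (SE 0.06, adjusted p = 0.0019) against Estop. Habp4 (ENSMUSG00000021476, chromosome 13: 64161824 to 64186537), a hyaluronan- and RNA-binding protein, was at 164 to 191 CPM under nZFP (median 177), 132 to 177 CPM under DBD (median 152) and 143 to 158 CPM under Estop (median 155), with overlap, and differed by 0.24 (SE 0.05, adjusted p = 0.0081). Fstl5, a follistatin-like secreted protein, was at 17.4 to 24.5 CPM under nZFP (median 21.5), 15.3 to 18.4 CPM under DBD (median 17.1) and 14.0 to 20.9 CPM under Estop (median 17.6) (log2 difference 0.36, SE 0.07, adjusted p = 0.0077). 2900079G21Rik, at 0.66, lies on the strand opposite to Arpp21 and overlaps its end, and its value is uncertain because strand use in counting is unknown.

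Ddn (ENSMUSG00000059213, chromosome 15: 98803777 to 98809490), which encodes the postsynaptic protein dendrin, was higher under nZFP than DBD, with DBD below Estop. It was at 1372 to 1773 CPM under nZFP (median 1673), 1013 to 1489 CPM under DBD (median 1155) and 1498 to 1816 CPM under Estop (median 1740), so the nZFP and Estop libraries overlapped and 2 DBD libraries reached the nZFP range. The values were 0.42 (SE 0.10, adjusted p = 0.028) for nZFP minus DBD, -0.50 (SE 0.10, adjusted p = 0.0074) for DBD minus Estop and -0.08 (SE 0.09, adjusted p = 1.0) for nZFP minus Estop. Sowaha, Kcnj3 (a G protein-gated potassium channel subunit) and Zcwpw1 (a reader of histone methylation) were at 0.23, 0.30 and 0.52 against DBD and passed neither Estop comparison. With a block for the mouse, 5 of these rises no longer passed: Zcwpw1 (adjusted p = 0.56), Ddn and Fstl5 (both adjusted p = 0.086), Kcnj3 (adjusted p = 0.090) and Habp4 (adjusted p = 0.18). The rises numbered 2 without DBD R3, 4 without nZFP R2, and 5 without DBD R2, DBD R8 or nZFP R7. In the other WT cohorts 4, 5, 4 and 3 of the 8 rises passed as higher, in the order 2M_8M, 6M_8M, 6M_10M and 6M_12M (0.938%, 0.496%, 0.183% and 0.0322% of all genes), with Necab2 passing in all 4 (0.39, 0.54, 0.39 and 0.43). Without the 2 outlying libraries of 6M_10M, 6 of the 8 passed (0.478%), and with all libraries of 6M_8M 5 passed (0.519%).

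**Figure D4:**
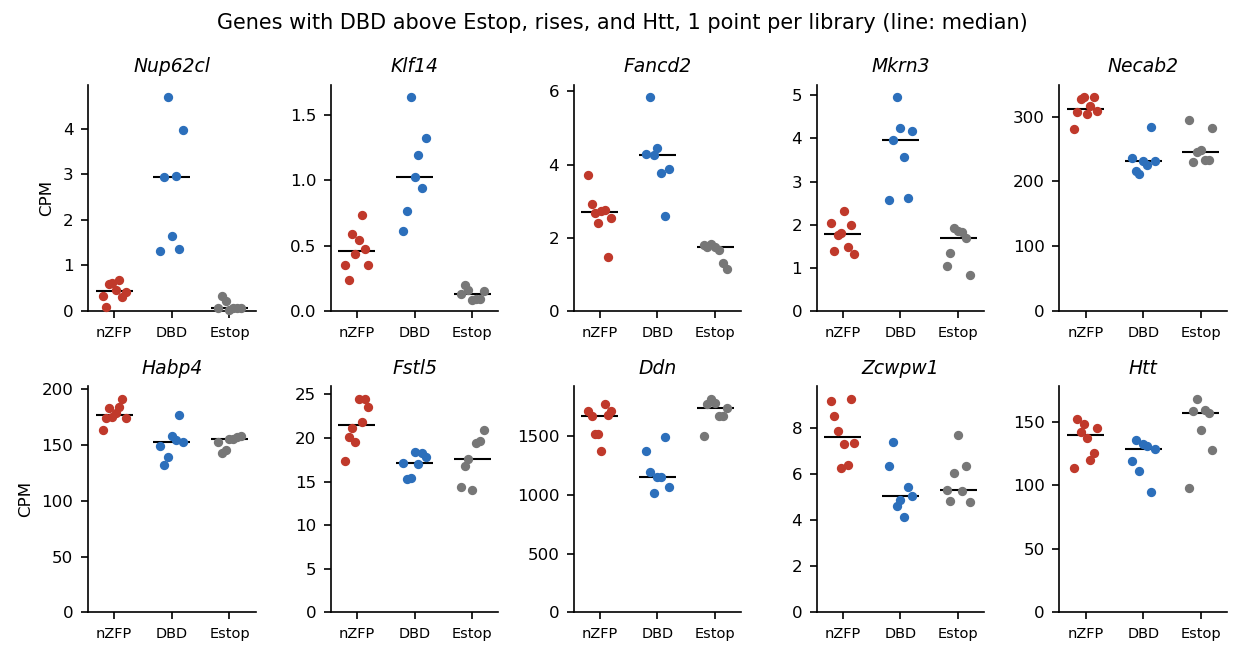
Level in CPM (y axes from 0) in WT nZFP, DBD and Estop libraries of 4 genes with DBD above Estop (Nup62cl, Klf14, Fancd2, Mkrn3), 5 genes higher under nZFP than DBD (Necab2, Habp4, Fstl5, Ddn, Zcwpw1) and Htt, 1 point per library with the median as a line. DBD medians are highest for the first 4 genes and lowest for Ddn, though DBD and nZFP points overlap for Klf14, Fancd2 and Ddn. The Htt groups overlap.

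Within the 8 nZFP libraries, the level of the named falls was set against that of the repressor transcript. The library nZFP R1 had the lowest repressor level, 427 CPM, and the highest level of 21 of the 28 falls, and nZFP R5 had the highest repressor level, 1087 CPM. The share of all genes that were highest in R1 is not given here. For the 10 named falls, log2 CPM was correlated with the log2 repressor CPM, with exact two-sided permutation tests adjusted over the 10 genes (Benjamini-Hochberg). All 10 Pearson coefficients were below 0, from -0.93 for Arpp21 to -0.11 for Phex. Only these 10 genes were correlated with the repressor, and the share of all genes with such a relation is not given here. Whether the relation is particular to the falls therefore cannot be read from these values. The 3 that passed by exact permutation were Arpp21 (raw p = 0.0014, adjusted p = 0.0069; Spearman rho = -0.90, raw p = 0.0046, adjusted p = 0.023), Cd59a (r = -0.88, raw p = 6.7e-04, adjusted p = 0.0067) and Stk32c (r = -0.84, raw p = 0.010, adjusted p = 0.034). For Cd59a the exact permutation of Spearman's rho, -0.95, gave raw p = 0.0011 and adjusted p = 0.011, and for Stk32c, at -0.74, 0.046 and 0.15. Without R1 and R5, the 2 libraries farthest from the median repressor level, 0 of 10 passed over the other 6 by exact permutation and 9 of 10 coefficients were below 0. They were -0.66 for Arpp21, -0.83 for Cd59a and -0.69 for Stk32c, but 0.06 for Kcnn3 (-0.72 over all 8), -0.05 for Mzt2 (-0.67 over all 8) and -0.02 for Phex. The relation was therefore not called without those libraries, and the loss of 2 libraries and the smaller number left cannot be told apart.

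**Figure D5:**
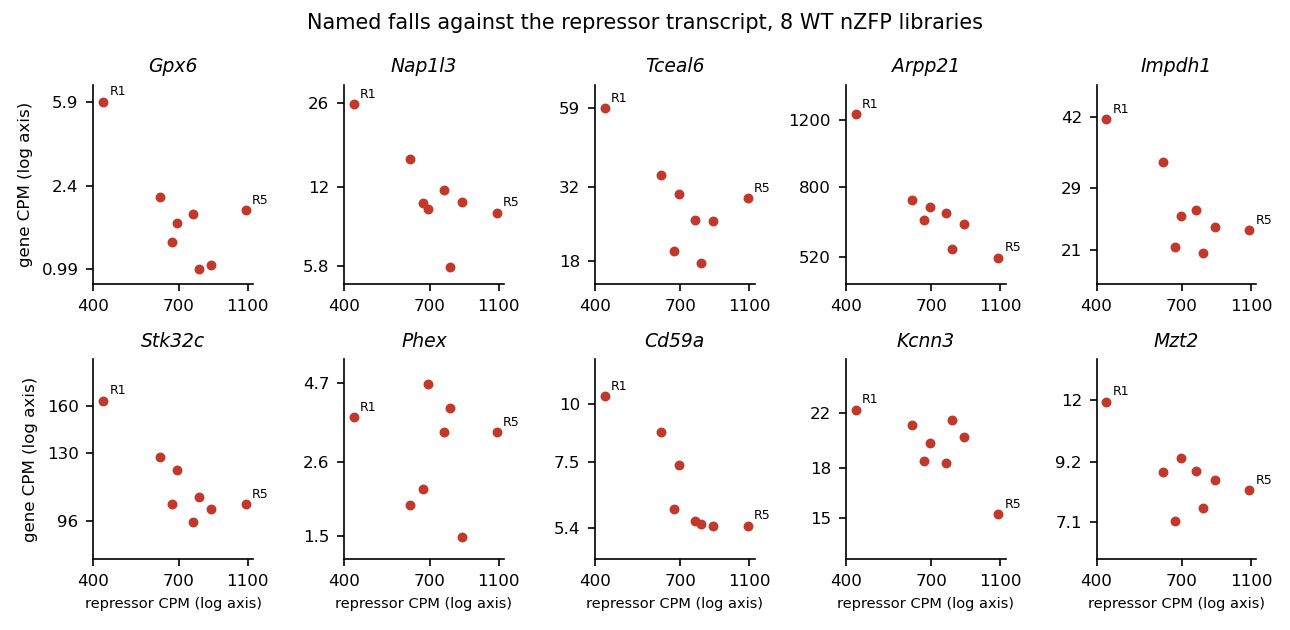
Level of the 10 named falls (y axes, CPM, log scale) against the repressor transcript (x axes, CPM, log scale) in the 8 WT nZFP libraries, 1 point per library, with R1 and R5 marked. R1, lowest in repressor at 427 CPM, is highest in 9 of the panels, and Phex shows no order.

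In zQ175 mice of the same cohort, which are heterozygous for the expanded allele, 2040 genes were lower (13.0%) and 1397 higher (8.92%) under nZFP than DBD, and 990 (6.30%) and 1171 (7.45%) without zQ175 DBD R3, which stood apart in the length index. The difference between the genotypes itself passed for 290 genes upward (1.85%) and 123 downward (0.786%), and for 402 (2.56%) and 146 (0.929%) without that library. Ddit4l, a regulator of mTOR signalling, was at 31.9 to 41.2 CPM under nZFP (median 33.4), 31.2 to 39.5 CPM under DBD (median 34.5) and 31.3 to 55.9 CPM under Estop (median 36.9) in WT striatum and at 18.3 to 26.3 CPM under nZFP (median 22.5), 6.64 to 11.0 CPM under DBD (median 7.84) and 7.47 to 8.85 CPM under Estop (median 8.28) in zQ175 striatum. The difference between genotypes was 1.43 (SE 0.13, adjusted p = 9.9e-10), with WT nZFP minus DBD at 0.00. Hrk, a BH3-only activator of cell death, Rps6ka4, a kinase, and Sec14l3, a lipid transfer protein, differed by 1.03, 0.78 and 1.61 in the same direction. Downward, Stmn2 (stathmin 2), Pcdhb20, Gprasp2 and Cd200 differed by -0.63, -0.61, -0.45 and -0.50.

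Most of the falls also passed in zQ175 mice, where 22 of the 28 passed as lower, with 27 of 28 below 0 and a median of -0.63 (13.0% of all genes were called lower there). The difference between genotypes was called for 2 of the 28, Gpx6 and Mas1, both upward, beside 1.85% of all genes. Gpx6 was already low in zQ175 striatum, at 0.379 to 0.764 CPM under nZFP (median 0.505), 0.702 to 1.30 CPM under DBD (median 0.965) and 0.98 to 1.61 CPM under Estop (median 1.22), and fell by less there, by 0.87 on the log2 scale (difference between genotypes 1.33, SE 0.35, adjusted p = 0.028). Mas1 was at 2.76 to 6.73 CPM under nZFP (median 3.52), 3.84 to 7.49 CPM under DBD (median 5.84) and 3.16 to 7.60 CPM under Estop (median 6.19) in WT and at 1.55 to 3.08 CPM under nZFP (median 2.60), 1.53 to 2.74 CPM under DBD (median 2.06) and 1.35 to 2.73 CPM under Estop (median 2.04) in zQ175 striatum (difference 0.96, SE 0.23, adjusted p = 0.012). Nup62cl also differed (log2 difference 2.22, SE 0.45, adjusted p = 0.0023): its level under DBD was 0.0804 to 0.964 CPM in zQ175 striatum.

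Htt (ENSMUSG00000029104, chromosome 5: 34761740 to 34912534) was not called in WT striatum. It was at 114 to 152 CPM under nZFP (median 139.9), 94.5 to 136 CPM under DBD (median 128) and 98.0 to 168 CPM under Estop (median 157). The groups overlapped, and nZFP minus DBD was 0.13 (SE 0.10, adjusted p = 1.0), a ratio of 1.10 with a 95% interval of 0.951 to 1.26. Against Estop the ratio was 0.936 (0.814 to 1.08) for nZFP and 0.854 (0.738 to 0.989) for DBD, the latter with adjusted p = 1.0 over all genes. The lowest DBD and Estop values, 94.5 and 98.0 CPM, were those of DBD R7 and Estop R1. Both libraries stood apart in the length index, whose part in these levels was not tested. For Htt, nZFP minus DBD was 0.08 without DBD R7 and 0.13 without Estop R1, and was called in neither fit. Of the 9 polyglutamine disease genes none passed, with log2 fold changes of nZFP minus DBD between -0.07 and 0.13, among them Atxn1 (-0.07), Atxn3 (-0.07) and Tbp (0.02). In 28 of the 30 gene lists no member passed in nZFP minus DBD. With 0.211% of all genes called lower and 0.0511% higher, lists of this size without a call are near the background. List medians ran from -0.14 (immediate early genes) to 0.14 (lymphocyte genes, with 3 measured). The 10 reactive astrocyte genes ran from -0.27 (Steap4, SE 0.43) to 0.31 (Gfap, SE 0.25), with a median of 0.05. C4b, also of that list, was at 0.26 (SE 0.20). The 14 disease-associated microglial genes ran from -0.23 to 0.52 (Spp1, SE 0.29), with a median of 0.06. None of 23 interferon response, 17 antigen presentation, 14 microglial, 14 disease-associated microglial, 12 astrocyte or 10 reactive astrocyte genes passed. Nor did any of 16 genes of the p53 response, 16 of the unfolded protein response, 10 of direct pathway or 8 of indirect pathway neurons pass.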

How the data were processed

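The deposited table holds expected counts per gene, made by the authors with RSEM on GRCm38, per the submitters' processing notes. Tool versions, annotation release and strand use: not given in the sources used here. Expected counts were rounded and tested in R 4.3.3 with edgeR 4.0.16 (quasi-likelihood, TMM, filterByExpr, sex as covariate), 45 libraries of the 6 groups of 2M_6M in 1 fit, with Benjamini-Hochberg adjustment and a threshold of 0.05. edgeR ran with limma 3.58.1, and DESeq2 1.42.0 was an alternative. Levels are CPM. The fit was also run on simulated counts with set changes in WT nZFP, drawn independently for each library. They held no pairing of hemispheres and no length effect, so that run cannot speak to either, and its outcome is not given here. The members and lists were chosen with earlier results of these data known. Named genes were Htt, up to 12 lower and 12 higher genes by size of change at 1 CPM or more, the leading genes of each class by Estop, up to 4 genes a list, and up to 4 genes a direction for the genotype difference; genes named otherwise are said to be so. Hemispheres of 1 mouse pair the libraries by animal, read from the number in the labels' sample IDs: deviations from group means correlated with a median of 0.21 over 11 pairs (0.07 to 0.46; 9 over 0.1). CAG runs were read from GENCODE M21 transcripts and RefSeq promoter windows. Alternatives were other normalizations, filters, covariates, blocks and libraries left out in turn. Columns of unassigned samples numbered 0. p-values measure the spread between libraries, and counting intervals were not used.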

Additional observations from a re-analysis of the deposited data

Results flagged for a closer look

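Of 66 groups of library values examined for the named genes, 13 held a library far from the others, where chance gives about 1 in 20. WT nZFP R1 was the highest of its group for Arpp21 (1242 CPM), Gpx6 (5.95 CPM), Mzt2 (11.9 CPM), Stk32c (164 CPM) and Tceal6 (59.2 CPM), and it had the lowest repressor transcript. WT DBD R7 was highest for Impdh1 (70.8 CPM), Necab2 (284 CPM), Stk32c (341 CPM) and Tceal6 (128 CPM). WT Estop R1 was lowest for Kcnn3 (21.3 CPM) and highest for Mzt2 (19.9 CPM) and Tceal6 (129.6 CPM), and WT Estop R7 was highest for Nap1l3 (62.5 CPM). DBD R7 and Estop R1 also stood apart in the length index, whose part in these values was not tested.

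The log2 fold change of nZFP minus DBD differed between genotypes, by edgeR's test of the difference (zQ175 minus WT), for 15 named genes. Among them, Ddit4l, Hrk, Rps6ka4, Sec14l3, Stmn2, Pcdhb20, Gprasp2 and Cd200 were named for their small p in this test, so their passing was set by the choice. Of all genes, 1.85% passed upward and 0.786% downward. The fold change was higher in zQ175 for Sec14l3 (1.61), Ddit4l (1.43), Hrk (1.03), Rps6ka4 (0.78) and Ddn (0.56), and for Nup62cl (2.22), Gpx6 (1.33), Mas1 (0.96) and Mfsd13a (0.34), which fell in WT. It was lower in zQ175 for Stmn2 (-0.63), Pcdhb20 (-0.61), Cd200 (-0.50), Kcnj3 (-0.47), Gprasp2 (-0.45) and Fstl5 (-0.39). Of the 8 rises in WT, 6 passed as higher in zQ175 mice (8.92% of all genes did). Kcnj3 was lower under nZFP than DBD there (-0.17, edgeR adjusted p = 0.046), but did not pass without zQ175 DBD R3 (-0.15, edgeR adjusted p = 0.11). Fstl5 was at -0.03 there.

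The library labelled WT DBD R6 was left out of the main fit and entered only an alternative. It held the Estop vector entry at 3.73 CPM and an EGFP entry at 1.12 CPM, where the 7 other DBD libraries held 0.462 to 1.27 CPM and 0 CPM.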

How the results depend on the processing

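No fold change of a named gene in 2M_6M changed direction. Values that were not called did: the Kcnn3 correlation with the repressor went from -0.72 to 0.06 without the 2 farthest libraries. In 6M_8M with all libraries, Krt9 went from -0.25 to 0.02, Mas1 from -0.26 to 0.02 and Fstl5 from 0.11 to -0.08. The balance of DBD minus Estop calls turned without zQ175 DBD R3. With DESeq2, 20 genes were higher in nZFP than DBD (8 in edgeR), 29 were higher and 22 lower in DBD than Estop (17 and 7), and 9 rises fell on the nZFP side and 3 on the DBD side (4 and 1). Without zQ175 DBD R3 the counts were 26 higher and 57 lower for nZFP minus DBD, 76 and 133 for nZFP minus Estop, and 35 and 42 for DBD minus Estop, with 45 falls and 11 rises on the nZFP side and 4 rises on the DBD side. With the length index as covariate they were 36 and 58, 125 and 158, 42 and 37, 45, 13 and 4. With the mouse as a replicate block, 5 genes were higher in nZFP than DBD, 2 lower in DBD than Estop and 0 rises were on the DBD side; Zcwpw1, Ddn, Fstl5, Kcnj3 and Habp4 lost their calls, and 26 of the 33 falls kept theirs. With the mouse block on the WT groups alone, an alternative chosen after seeing the data, 3 genes were higher in nZFP than DBD, 24 higher in nZFP than Estop, 2 falls were on the DBD side, and 2 and 0 rises on the nZFP and DBD sides. With the replicate number as a block, 0 rises were on the DBD side; same-numbered libraries of other mice correlated with a median of 0.09 over 12 pairs (6 over 0.1), so the numbers are not taken to pair them. With WT DBD R6 included, 5 genes were higher in nZFP than DBD, 3 lower in DBD than Estop, 2 falls and 0 rises were on the DBD side. DBD minus Estop had 16 lower genes and 2 rises on the DBD side in the WT groups alone, 15 lower with hemisphere as covariate and 11 at a mean of 1 CPM or more. Without a low count filter 3 falls were on the DBD side. At an absolute log2 fold change of 0.5 or more, 2 genes were higher, with 1 rise on the nZFP side and 0 on the DBD side. Classed by size, 4 falls and 3 rises were on the DBD side. In 6M_8M with the libraries that contradict their labels, 0 of the 28 falls passed (17 without), and without the 2 farthest libraries 0 of 10 correlations with the repressor passed (3 with all). The cause of these shifts was not tested.

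When each of the 22 WT libraries was left out in turn, 2 to 12 genes were higher and 30 to 46 lower in nZFP than DBD, 27 to 41 higher and 45 to 67 lower in nZFP than Estop, and 14 to 24 higher and 4 to 14 lower in DBD than Estop. The classes held 26 to 36 falls and 2 to 5 rises on the nZFP side, and 1 to 2 falls and 0 to 2 rises on the DBD side, and Htt was at 0.08 to 0.17. Depth limits Gsc2, at a mean of 0.262 CPM, and Nup62cl under Estop, at 0.0274 to 0.319 CPM.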

Other observations

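Chromosome X held 6 of the 28 falls on the nZFP side (21.4%) and 3.53% of the 15554 tested genes with an annotated transcript. Some genes passed for nZFP minus Estop but not for nZFP minus DBD, and were named after their values were seen. P2ry1, a purinergic receptor, was at 1.21 against Estop (adjusted p = 1.3e-04, edgeR) with DBD minus Estop at 0.51 on the log2 scale. Stat5a and Stat3, transcription factors of cytokine signalling, were at 0.70 and 0.33 for nZFP minus Estop, with DBD minus Estop at 0.41 and 0.29. Fgf9, a growth factor, was at -0.55 and -0.21, Prkcb, a protein kinase C, at -0.37 and -0.24, and Gad1, which makes GABA, at -0.20 and -0.09 for the same comparisons.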
